A study of Mus musculus with 12 samples.

Results

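*Fos*, *Fosb*, *Jun*, *Junb*, *Egr1*, *Ier2*, *Dusp1*, *Atf3*, *Nr4a1* and *Klf4* are 10 genes of the immediate early response, and most of them encode transcription factors. They were chosen by name and found on the array through the accession of each probe. All 10 had a probe, with 11 probes in all among the 41174 on the array, because *Junb* had a pair of them. Of these genes, 9 (10 probes) gave enough signal to be tested, among 12647 tested genes (22979 tested probes). *Fos* was too dim. The array names 17305 genes in all. *Fos* lies on chromosome 12, as does *Bdkrb2*, and the others lie on chromosomes 1 (*Atf3*), 4 (*Jun* and *Klf4*), 7 (*Fosb*), 8 (*Junb* and *Ier2*), 15 (*Nr4a1*), 17 (*Dusp1*) and 18 (*Egr1*).

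The kidneys came from *Bdkrb2* null and wild-type (WT) mouse embryos at embryonic day 14.5, the offspring of heterozygous parents on a C57BL/6 background. The mothers of null and WT embryos were heterozygous and ate food with 5% sodium, so the null and the WT kidneys shared that salt exposure, and kidneys without it were not analysed here. RNA of the null and RNA of the WT kidneys was labelled with Cy5 and Cy3 and hybridised together on 12 arrays, with null in Cy5 on one set of arrays (null/WT) and in Cy3 on the other (WT/null). Each orientation had 3 replicates of 2 arrays each, so each gene has 6 replicate values of null over WT. The labels say neither how the null allele was made nor how many embryos went into a sample, and p-values measure the spread between these samples only.

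Immediate early genes are transcribed within minutes of a stimulus without the need for new protein, mainly through MAP kinases acting on serum response factor and its partners and through kinases acting on CREB. FOS and JUN family proteins pair to form AP-1, EGR1, NR4A1 and KLF4 bind other DNA sites, and DUSP1 switches the MAP kinases off again. The receptor that *Bdkrb2* encodes, the bradykinin B2 receptor, couples to Gq and phospholipase C and is known to activate MAP kinases in kidney cells, and in kidney these genes are known for their fast rise after ischaemia.

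Promoters of 8 of the 10 genes were read from RefSeq (build GRCm38.p6), from 250 bases before to 50 after each gene's start. The 5 printed here belong to genes that were higher in null on all 4 arrays of slide 3, among them *Klf4*, the gene with the smallest p. *Egr1* was so as well, but its promoter is not shown. Printing them lets a reader compare their CREB-type sites. Capitals mark TGACG, the core of the CRE (the site CREB binds), its reverse complement CGTCA, the full CRE TGACGTCA, which holds TGACG, or the variant TGACATCA. The windows are *Jun* (chr4:95052173-95052472, minus strand), *Junb* (chr8:84978699-84978998, minus strand), *Dusp1* (chr17:26508423-26508722, minus strand), *Nr4a1* (chr15:101266596-101266895, plus strand) and *Klf4* (chr4:55532426-55532725, minus strand), each written 5′ to 3′ on the gene's strand.
Jun: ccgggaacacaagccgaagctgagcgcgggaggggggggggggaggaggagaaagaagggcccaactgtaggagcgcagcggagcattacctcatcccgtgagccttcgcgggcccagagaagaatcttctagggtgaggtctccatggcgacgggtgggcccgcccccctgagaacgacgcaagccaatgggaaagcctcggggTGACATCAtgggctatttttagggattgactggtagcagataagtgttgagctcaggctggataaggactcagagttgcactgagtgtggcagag
Junb: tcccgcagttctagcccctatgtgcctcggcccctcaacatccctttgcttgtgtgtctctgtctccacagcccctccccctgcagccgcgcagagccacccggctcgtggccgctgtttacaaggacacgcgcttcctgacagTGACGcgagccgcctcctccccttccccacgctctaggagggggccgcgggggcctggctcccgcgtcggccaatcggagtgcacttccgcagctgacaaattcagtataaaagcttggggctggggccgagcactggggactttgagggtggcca
Dusp1: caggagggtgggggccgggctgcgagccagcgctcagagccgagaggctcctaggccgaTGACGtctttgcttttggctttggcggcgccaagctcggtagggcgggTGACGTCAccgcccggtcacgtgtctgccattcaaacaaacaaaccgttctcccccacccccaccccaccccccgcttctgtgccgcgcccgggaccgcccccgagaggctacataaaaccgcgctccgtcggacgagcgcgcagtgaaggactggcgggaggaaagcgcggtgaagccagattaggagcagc
Nr4a1: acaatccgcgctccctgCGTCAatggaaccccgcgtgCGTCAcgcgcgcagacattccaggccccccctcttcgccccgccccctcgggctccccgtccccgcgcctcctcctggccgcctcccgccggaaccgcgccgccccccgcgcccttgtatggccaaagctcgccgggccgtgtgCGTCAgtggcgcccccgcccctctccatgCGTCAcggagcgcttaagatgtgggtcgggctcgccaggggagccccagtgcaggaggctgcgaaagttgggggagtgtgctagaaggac
Klf4: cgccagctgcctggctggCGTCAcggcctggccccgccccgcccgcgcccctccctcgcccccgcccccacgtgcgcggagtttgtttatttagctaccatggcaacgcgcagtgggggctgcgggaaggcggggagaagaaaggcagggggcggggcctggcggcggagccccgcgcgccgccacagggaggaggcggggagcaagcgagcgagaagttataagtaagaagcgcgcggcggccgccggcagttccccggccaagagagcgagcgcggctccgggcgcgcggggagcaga
TGACG was present on either strand in 7 of the 8 promoters, against 21.0% of 27025 promoters of the same length. *Dusp1* alone among the 8 held the full CRE, starting 143 bases before the gene's start, against 1.88% of all promoters. *Jun* alone held TGACATCA, starting 45 bases before its start, against 3.76%, and it was the one promoter of the 8 without TGACG. *Nr4a1* held TGACG 4 times on the minus strand. GGGCGG, an SP1 site, was found in 7 promoters against 35.9%, and GCGNGGGCG, an EGR site, in *Fosb*, *Nr4a1* and *Klf4* (3 of 8) against 5.55%. TATAAA was found in *Fos* and *Junb* (2 of 8) against 14.2%, and CCGGAA, an ETS core, in *Nr4a1* (1 of 8) against 15.2%. TGANTCA, the AP-1 site, and the CArG box were in 0 of the 8 windows, against 7.93% and 1.57%. All motifs were searched on both strands.

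The share of an array's spots well above background was 41.2% to 59.0% in Cy3 and 51.1% to 60.0% in Cy5. By its background share, ratio spread and duplicate correlation, 1 array stood apart, the first of WT/null replicate 3. It had the 41.2%, an SD of its log2 ratios of 0.38 against 0.16 to 0.26 on the other arrays, and a correlation with its duplicate array of 0.711 against 0.824 to 0.923 in the other replicates. Results on the immediate early genes are therefore also given without it. Before scaling between arrays, the first array of WT/null replicate 1 read dim probes higher. *Fos* stood there at 7.25 in null and in WT, against 6.09 and 6.06 on the duplicate array. Without WT/null replicate 1 as a whole, 0 of 9 members passed and their median null over WT was 0.0877. The 6 nephron progenitor markers (*Six2*, *Cited1*, *Eya1*, *Osr1*, *Meox1* and *Crym*) were well above background in both genotypes on all 12 arrays, while *Ret*, a ureteric tip marker, was so in 0 null and 1 WT channel of 12. *Bdkrb2* itself could not check the genotype, since its probe passed that limit in 0 null and 1 WT channel of 12.

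None of the immediate early genes passed the test between null and WT kidneys. With limma and Benjamini-Hochberg adjustment over all tested probes, 0 of 9 had an adjusted p under 0.05, against 3 of 12647 genes (0.0237%; 1 higher, 0.00791%, and 2 lower, 0.0158%) and 9 of 22979 probes (0.0392%). With the shared slide of each replicate number as a block, 0 of 9 passed against 2 genes (0.0158%). Unadjusted, 1 of the 9 (*Klf4*) had a limma p under 0.05, against 984 genes (7.78%). With the block it was again 1, against 442 genes (3.49%). The fitted null over WT was above 0 for 6 of the 9 and below 0 for 3, where 48.1% of all genes were above 0. The members spanned -0.10 to 0.18 on the log2 scale, with a median of 0.081 against -0.0031 for all tested genes. Without the array that stood apart, the median was 0.0845 and 0 of 9 passed. *Egr1* and *Klf4* were higher in null in 6 of 6 replicates (2 of 9), against 1.67% of all genes, and 0 of 9 were lower in all of them, against 1.38%. In whole kidneys, fewer cells of a type and less RNA per cell cannot be told apart.

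**Figure D1:**
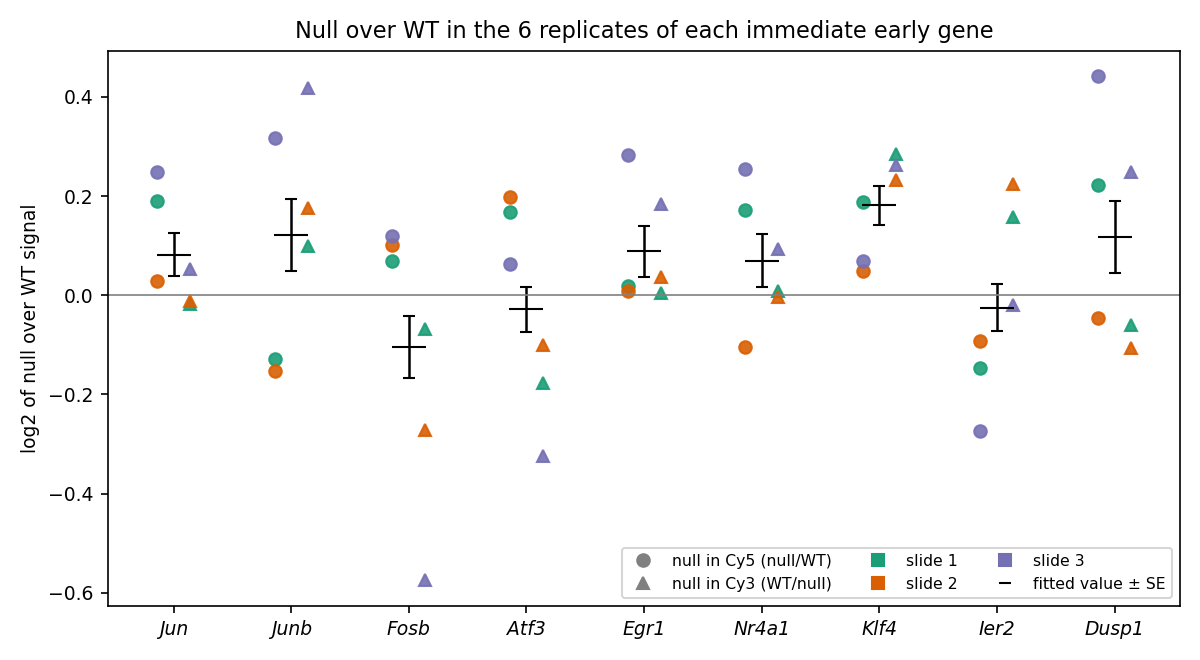
Null over WT on the log2 scale (y axis) for each tested immediate early gene (x axis), with 1 point per replicate, shaped by dye orientation and coloured by slide. Bars give the fitted value ± SE of limma. All 6 points of *Klf4* lie above 0, between 0.049 and 0.28, and for 5 genes (*Jun*, *Junb*, *Egr1*, *Nr4a1* and *Dusp1*) both slide 3 points lie above 0.

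*Klf4* encodes a zinc finger factor best known for its part in epithelial differentiation and in keeping stem cells pluripotent. Its brightness (normalized log2 signal of probe A_51_P213544) had a lowest value of 12.35, a median of 12.36 and a highest of 12.61 in the 6 null replicates, against 12.08, 12.25 and 12.35 in the 6 WT replicates. The groups met only at their edges, where the lowest null value and the highest WT value were the same to 2 decimals. Means were 12.41 ± 0.10 in null and 12.23 ± 0.10 in WT kidneys (SD, n = 6 replicates each). On the WT/null arrays, null over WT was 0.28, 0.23 and 0.26 for replicates 1, 2 and 3, and on the null/WT arrays it was 0.19, 0.049 and 0.068. All 12 arrays were above 0, and the WT/null values stood above the null/WT ones. The fitted log2 value was 0.18 ± 0.04 (SE), a 1.13-fold difference with a 95% interval of 0.0905 to 0.27. Its limma p was 0.00167 unadjusted and 0.38 adjusted, and the adjusted p was 0.904 with the slide as a block. Treating the 12 arrays as separate values with the replicate as a random block gave a limma adjusted p of 0.0142, so the call of this gene depends on how duplicate arrays enter. Over all alternatives the value lay between 0.15 and 0.38 and the limma adjusted p between 0.0142 and 0.923. Without the array that stood apart the value was 0.18 (limma adjusted p = 0.23).

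*Egr1* encodes the zinc finger factor that growth factors induce through ERK. Its probe, A_51_P367866, read 7.82, 8.05 and 8.17 (lowest, median and highest log2 brightness) in null replicates and 7.805, 7.89 and 8.09 in WT replicates. The ranges overlapped over most of their length. Null over WT was 0.0051, 0.037 and 0.18 in WT/null replicates 1, 2 and 3 and 0.018, 0.0087 and 0.28 in null/WT replicates 1, 2 and 3. Every value was above 0, but the 4 of slides 1 and 2 were at most 0.037, and the pair from slide 3 was several times as large. The fitted value was 0.089 ± 0.051 (limma adjusted p = 0.721), with a 95% interval of -0.029 to 0.21.

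*Nr4a1* encodes an orphan nuclear receptor that is induced within minutes by many stimuli. Its brightness (probe A_51_P239654) had a lowest value, median and highest value of 11.41, 11.88 and 12.02 in null kidneys and of 11.30, 11.81 and 11.94 in WT kidneys. Null over WT was 0.0078, -0.0045 and 0.094 in WT/null replicates 1, 2 and 3, and 0.17, -0.11 and 0.25 in null/WT replicates 1, 2 and 3. Both values from slide 2 were below 0 and the other 4 above it. The fit gave 0.070 ± 0.053 (limma adjusted p = 0.734), with a 95% interval of -0.053 to 0.19.

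*Jun* encodes the AP-1 subunit that both pairs with itself and with FOS proteins. Its probe, A_51_P325914, was printed 10 times on each array, and the log2 ratios of those spots had an SD of 0.049 to 0.18 within an array. Brightness had a lowest value, median and highest value of 8.17, 8.29 and 8.38 in null replicates and of 8.07, 8.205 and 8.33 in WT replicates, with overlapping ranges. Null over WT was -0.018, -0.012 and 0.052 in WT/null replicates 1, 2 and 3 and 0.19, 0.028 and 0.25 in null/WT replicates 1, 2 and 3. All 3 null/WT values were above 0, and only the slide 3 value was so in the other orientation. The fit gave 0.081 ± 0.043 (limma adjusted p = 0.711), with a 95% interval of -0.018 to 0.18.

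*Junb* encodes a JUN family member that can hold JUN in check. Its brighter probe, A_51_P159201, read 9.86, 10.47 and 11.03 (lowest, median and highest) in null replicates and 9.98, 10.41 and 10.79 in WT replicates. Its null over WT was 0.10, 0.18 and 0.42 in WT/null replicates 1, 2 and 3 and -0.13, -0.15 and 0.32 in null/WT replicates 1, 2 and 3. On slides 1 and 2 the sign followed the dye, and on slide 3 both orientations were above 0. The fitted value was 0.12 ± 0.07 (limma adjusted p = 0.723), and without slide 3 it was -0.0012. The second probe, A_51_P159194, gave 0.047 ± 0.059 (limma adjusted p = 0.797). That probe was also above 0 on all 4 arrays of slide 3, but below 0 on all 4 arrays of slide 2 (mean -0.098).

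*Fosb* encodes a FOS family partner of JUN, and *Atf3* a stress-induced factor of the ATF and CREB family that also pairs with JUN proteins. *Fosb* (probe A_51_P138378) was dim, well above background on 6 of 12 arrays in null and on 7 of 12 in WT kidneys, and on none of the slide 1 arrays. Its brightness had a lowest value, median and highest value of 6.05, 6.355 and 6.60 in null and of 6.17, 6.47 and 6.71 in WT kidneys. All 3 null/WT values of *Fosb* were above 0 (0.069 to 0.12) and all 3 WT/null values below it (-0.57 to -0.067), so the sign of the replicate means followed the dye. *Fosb* had a fitted value of -0.10 ± 0.06 (limma adjusted p = 0.723).
*Atf3* (probe A_52_P452689) read 8.06, 8.26 and 8.40 in null and 8.06, 8.27 and 8.52 in WT kidneys (lowest, median and highest log2 brightness). The sign of its replicate means followed the dye as well, with 0.064 to 0.20 for null/WT and -0.32 to -0.10 for WT/null replicates, although 1 array of null/WT replicate 3 stood at -0.037. *Atf3* had a fitted value of -0.028 ± 0.045 (limma adjusted p = 0.838). Its dye term passed at a limma adjusted p of 0.0419, which held for 1 of the 9 genes against 15.7% of all genes.

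*Fos*, the gene most often used to mark this response, was not measurable. Its probe, A_52_P262219, also printed 10 times, passed the background limit on 2 of 12 arrays in null and 3 of 12 in WT kidneys. Its median Cy3 signal was 28 to 96 per array over a background of 17.8 to 22.4, and its Cy5 signal 82.2 to 94.8 over 70.6 to 75.6. The normalized log2 brightness had a lowest value, median and highest value of 6.22, 6.28 and 6.425 in null and of 6.22, 6.27 and 6.35 in WT kidneys, and no fold is given.

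*Dusp1* encodes the phosphatase that inactivates MAP kinases, and *Ier2* a nuclear protein of the early response. *Dusp1* (probe A_51_P430900) read 8.61, 8.75 and 8.95 in null and 8.47, 8.61 and 8.84 in WT kidneys (lowest, median and highest log2 brightness). Its null over WT was -0.060, -0.11 and 0.25 in WT/null replicates 1, 2 and 3 and 0.22, -0.046 and 0.44 in null/WT replicates 1, 2 and 3. Slide 2 was below 0 in both orientations and slide 3 above it in both. The fitted value was 0.12 ± 0.07 (limma adjusted p = 0.724), with a 95% interval of -0.050 to 0.28.
*Ier2* (probe A_51_P481325) read 12.22, 12.44 and 12.62 in null and 12.17, 12.53 and 12.69 in WT kidneys. Its WT/null values lay between -0.020 and 0.22 and its null/WT values between -0.27 and -0.093. The fitted value was -0.025 ± 0.048 (limma adjusted p = 0.865).

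Values above 0 in all arrays of a slide were most frequent on slide 3. On slide 3, 6 of the 9 (*Jun*, *Junb*, *Egr1*, *Dusp1*, *Nr4a1* and *Klf4*) were higher in null on 4 of 4 arrays, against 19.0% of all genes, and 1 (*Ier2*) was lower on 4 of 4, against 18.0%. On slide 1 the count was 1 higher (*Klf4*, against 11.7%) and 0 lower (against 9.72%). On slide 2 it was 1 higher (*Klf4*, against 11.7%) and 2 lower (*Dusp1* and *Nr4a1*, against 11.9%). The members' median null over WT on slides 1, 2 and 3 was 0.012, 0.012 and 0.17, where the median of all genes was 0.0034, -0.0050 and -0.0033. All genes also spread more on slide 3, with an SD of 0.21 against 0.13 and 0.12 on slides 1 and 2.
Gene by gene, *Junb* stood at -0.014, 0.012 and 0.37 on slides 1, 2 and 3 by its brighter probe. *Dusp1* stood at 0.082, -0.077 and 0.35, and *Egr1* at 0.012, 0.023 and 0.23. *Nr4a1* stood at 0.089, -0.055 and 0.17, and *Jun* at 0.086, 0.0078 and 0.15. *Klf4* was above 0 on each slide, at 0.24, 0.14 and 0.17. Without the array that stood apart, slide 3 gave 0.39 for *Junb*, 0.30 for *Dusp1*, 0.25 for *Egr1*, 0.18 for *Nr4a1*, 0.17 for *Klf4* and 0.16 for *Jun*, and a member median of 0.17. Without slide 3, the fitted member median was 0.017.

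**Figure D2:**
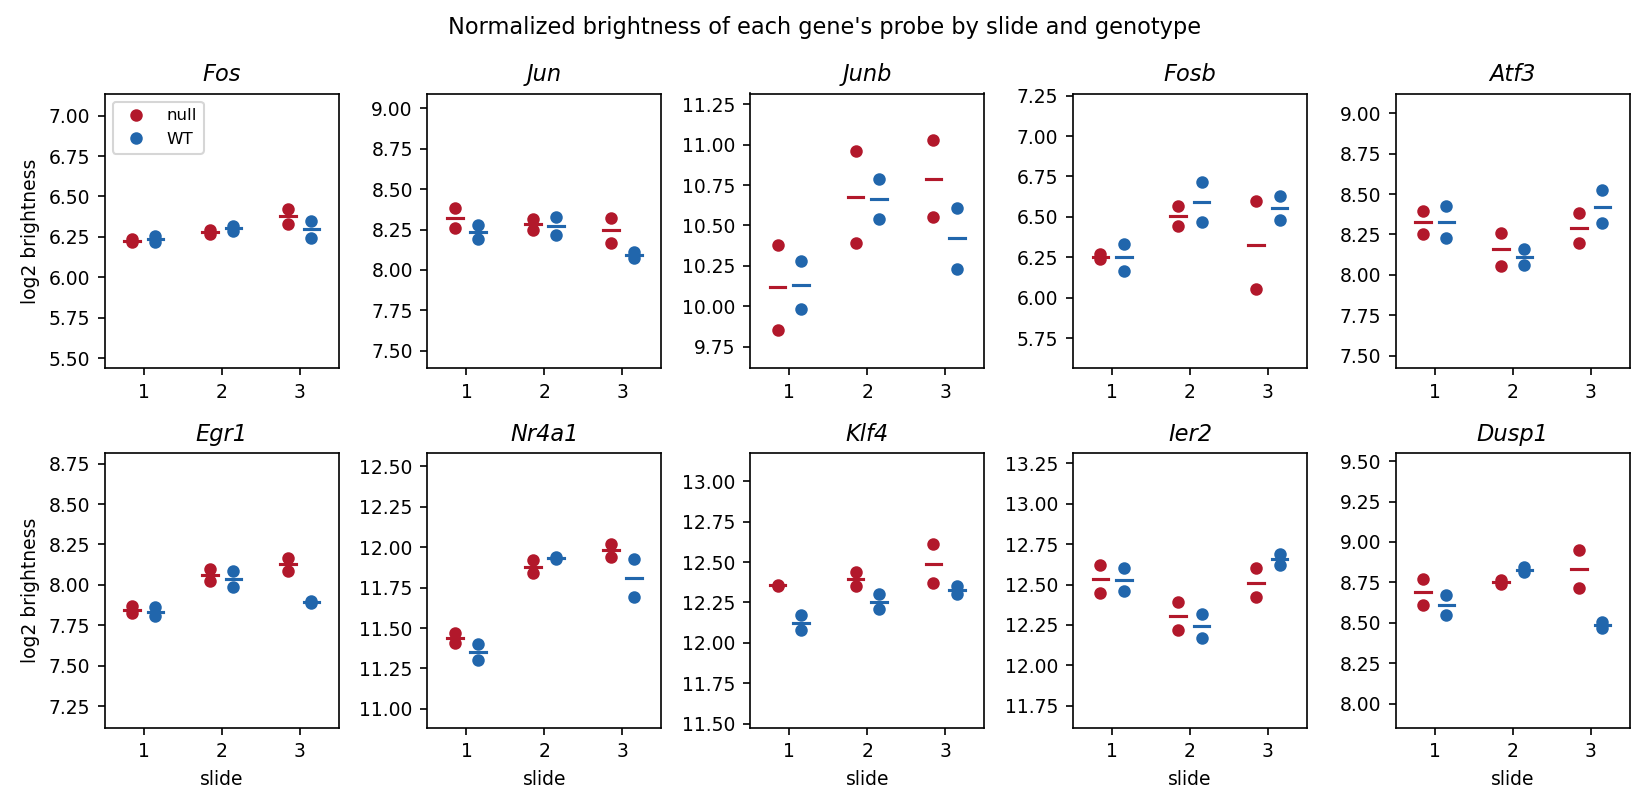
Normalized log2 brightness (y axis) of each immediate early gene's probe by slide (x axis), with null replicates left of WT replicates on each slide and a bar at their mean. Each panel spans the same log2 range but has its own origin, and levels of different probes are not comparable. On slide 3, both null points lie above both WT points for *Jun*, *Egr1*, *Nr4a1*, *Klf4* and *Dusp1*, and below them for *Ier2*. The share of all genes that do so was not counted, so this separation is not a trait of the members. By the nearest count, 19.0% of all genes were higher and 18.0% lower in null on 4 of 4 arrays of slide 3. Means of *Nr4a1*, *Junb*, *Egr1*, *Klf4*, *Fosb* and *Fos* are lower on slide 1 than on slides 2 and 3 in both genotypes.

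Marker genes of several cell types also stood farthest from 0 on slide 3. None of the tested markers passed the threshold, and their smallest limma adjusted p was 0.0778, in the endothelial list. An unadjusted limma p under 0.05 was found for 5 of 5 smooth muscle, 5 of 6 skeletal muscle and 3 of 6 stroma markers. It was also found for 2 of 6 endothelial, 2 of 6 nephron progenitor, 1 of 6 early nephron and podocyte and 1 of 4 liver markers. The other marker lists had 0, and the share of all genes was 7.78%. The 6 skeletal muscle markers (*Acta1*, *Myog*, *Tnnc2*, *Myh8*, *Myh3* and *Tnnt3*) were all above 0 in the fit, with medians of 0.14, 0.445 and 2.23 on slides 1, 2 and 3. Their summed level was 784 to 4020 in null and 760 to 967 in WT replicates. The 5 smooth muscle markers, all above 0 as well, had medians of 0.15, 0.13 and 0.53 and summed levels of 11400 to 19700 in null and 10500 to 17200 in WT kidneys. The 7 leukocyte markers, again all above 0, had medians of 0.023, 0.078 and 0.23, with summed levels of 3430 to 4620 in null and 3490 to 4330 in WT kidneys. Of 6 stroma markers 5 were above 0, with slide medians of 0.21, -0.0057 and 0.20 and summed levels of 21000 to 26500 in null and 17300 to 24300 in WT kidneys. The 6 endothelial markers, all above 0, had slide medians of 0.098, 0.040 and 0.18 and summed levels of 15900 to 18700 in null and 14300 to 17400 in WT kidneys.
Nephron progenitor markers went the other way, with 0 of 6 above 0 and slide medians of -0.0013, -0.069 and -0.21 and summed levels of 27800 to 34000 in null and 30700 to 38700 in WT kidneys. The ureteric bud markers had 1 of 4 above 0 and slide medians of -0.0195, 0.10 and -0.20. Liver markers (4 of 4 above 0) had slide medians of 0.0046, 0.096 and 0.27, and adrenal markers (0 of 2) of -0.014, 0.0067 and -0.11. Slide 3 was not the farthest from 0 for erythroid markers (3 of 5 above 0, with -0.21, 0.0073 and 0.15), for early nephron and podocyte markers (5 of 6, with -0.027, 0.11 and -0.0050) or for stroma. *Apoa1* of the liver list and *Cyp21a1* of the adrenal list were not well above background on any array. The part of these cell types in the immediate early values of slide 3 was not tested.

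**Figure D3:**
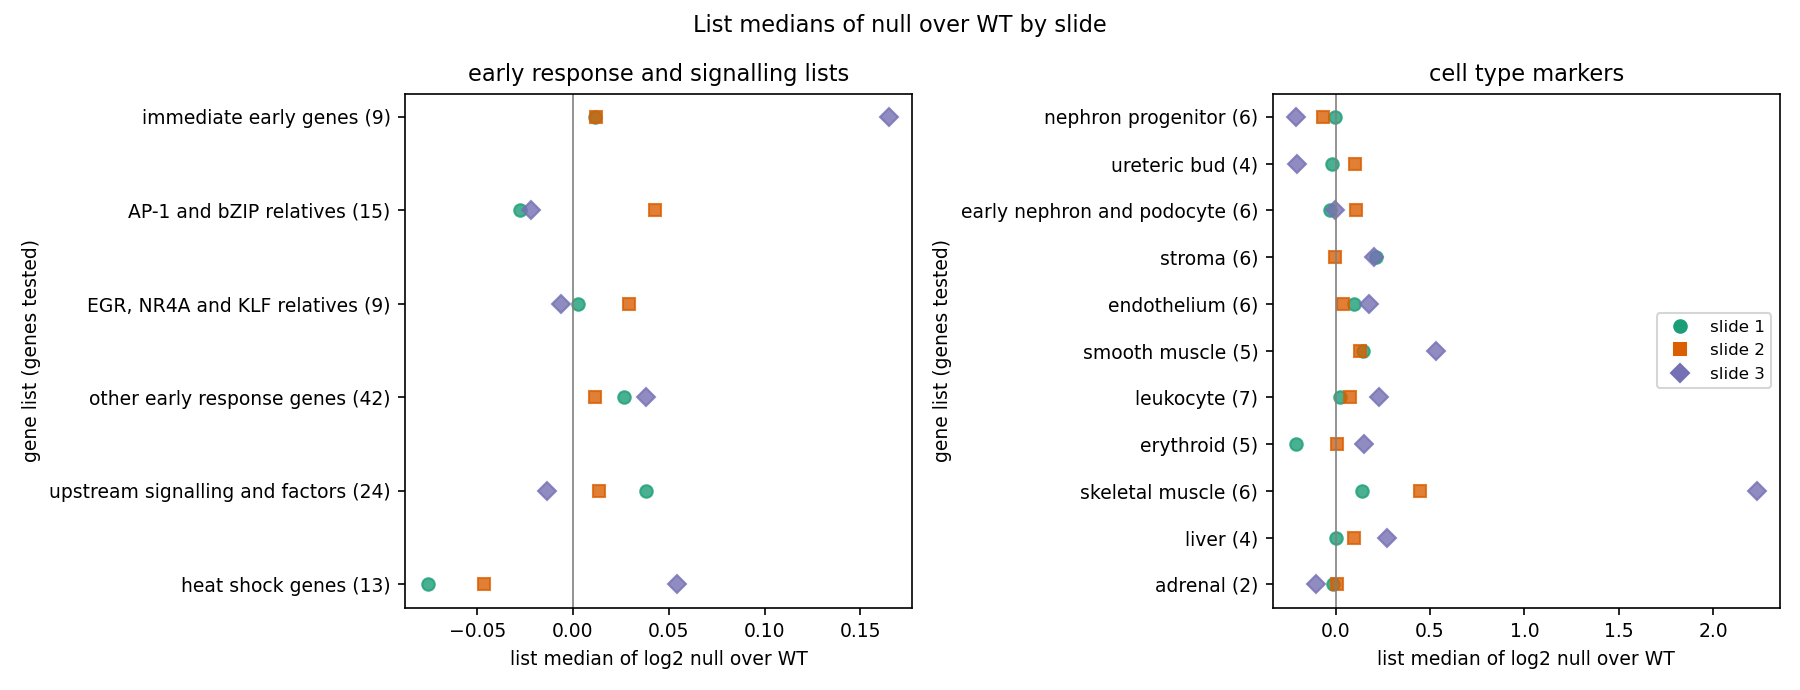
Median log2 null over WT (x axis) of each gene list (y axis, with the number of tested genes) on slides 1, 2 and 3, for the early response and signalling lists (left) and the cell type markers (right), on different x scales. The immediate early genes stand at 0.012, 0.012 and 0.17, and the skeletal muscle markers at 0.14, 0.445 and 2.23.

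Levels also differed between slides within a genotype. *Nr4a1* brightness averaged 11.44, 11.88 and 11.98 on slides 1, 2 and 3 in null kidneys and 11.35, 11.93 and 11.81 in WT kidneys. *Junb* averaged 10.12, 10.68 and 10.79 in null and 10.13, 10.66 and 10.42 in WT kidneys. For both genes, slide 1 was the lowest in null and in WT kidneys, as it was for *Egr1*, *Klf4*, *Fosb* and *Fos*. *Fosb* and *Fos* are dim, and without scaling between arrays that order did not hold for *Fos* or for *Fosb* in null kidneys. The share of all genes with that order was not counted. *Egr1* averaged 7.845, 8.06 and 8.13 on slides 1, 2 and 3 in null and 7.83, 8.04 and 7.89 in WT kidneys. *Dusp1* averaged 8.69, 8.75 and 8.83 in null and 8.61, 8.83 and 8.49 in WT kidneys. Slide 2 lay above slides 1 and 3 without overlap in both genotypes for 0 of the 9 genes by their brightest probe. That held for 8.25% of all genes, and for the second probe of *Junb*. *Ier2* was lowest on slide 2, at 12.54, 12.31 and 12.51 in null and 12.53, 12.24 and 12.66 in WT kidneys. *Atf3* was also lowest there, at 8.32, 8.16 and 8.29 in null and 8.33, 8.11 and 8.42 in WT kidneys. Without scaling, *Atf3* in null kidneys was lowest on slide 3 (8.22). Without scaling between arrays, *Ier2* was higher on slide 2 than on slide 1 (by 0.13 in null and 0.068 in WT kidneys), where the median of all genes was itself higher by 0.21 and 0.23.

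Across the 12 arrays, with each orientation's mean removed, null over WT of 8 of the members fell into 2 sets. These sets were picked after the correlations were seen. Arrays of a replicate are duplicates, arrays of a slide share a replicate number, and the values are a description. *Jun*, *Junb*, *Egr1*, *Dusp1* and *Nr4a1* correlated with each other at 0.632 to 0.98 (10 pairs), and *Fosb*, *Ier2* and *Atf3* at 0.553 to 0.836 (3 pairs). Between the sets, correlations ran between -0.787 and -0.168 (15 pairs). *Klf4* correlated with the others at -0.334 to 0.33, a range that was -0.854 to 0.605 without slide 2 and -0.402 to 0.821 without slide 3. In all, 18 of 36 pairs were positive. Without slide 3, the first set correlated at -0.0856 to 0.968 and the second at 0.0834 to 0.758 over 8 arrays, and pairs between the sets ran from -0.726 to 0.156. Without the array that stood apart, the ranges were 0.624 to 0.98, 0.348 to 0.797 and -0.792 to -0.118.
The genes outside the list whose null over WT was most like the mean of the 9 members were *C4bp* (Pearson r of 0.964 over 12 arrays), *Slc22a23* (0.962), *Rlim* and *Tm9sf2* (0.96 each), *Sfxn4* (0.956), *Srd5a1* (0.946), *H1f2* (0.944) and *Foxj2* (0.943). Their fitted null over WT lay between 0.017 and 0.12, with limma adjusted p values of 0.71 to 0.915. All 8 were above 0 on slide 3 (0.066 to 0.24). The members' median was highest on that slide, so picking genes for likeness to the members favours such values, which are no separate result.

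**Figure D4:**
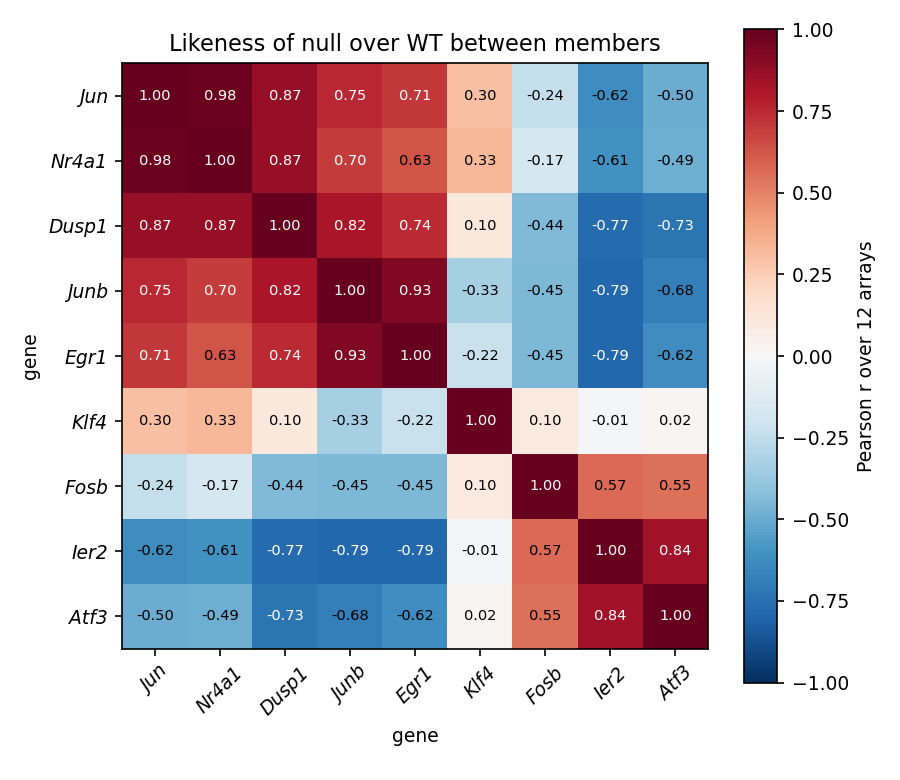
Pearson r (colour and number) between immediate early genes (both axes) of log2 null over WT over 12 arrays, after removal of each orientation's mean. *Jun*, *Nr4a1*, *Dusp1*, *Junb* and *Egr1* form a block of 0.632 to 0.98, and *Fosb*, *Ier2* and *Atf3* one of 0.553 to 0.836.

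Relatives of the members did not pass either. Of 18 AP-1 and bZIP relatives, 15 were tested, with 5 above 0, 10 below 0 and 0 past the threshold (0 at an unadjusted p under 0.05, against 7.78% of genes), and their median was -0.0090. By smallest p, *Maf*, a large MAF factor, stood at 0.083 ± 0.041 and *Atf2*, a partner of JUN, at 0.099 ± 0.052, although 2 of its 3 other probes had the opposite sign (-0.0485 and -0.022). *Atf4*, the factor of the integrated stress response, stood at -0.081 ± 0.051, *Atf5*, its relative, at -0.064 ± 0.045, and *Batf3*, a JUN partner of immune cells, at -0.14 ± 0.09. The small MAF genes *Maff* and *Mafg* stood at 0.069 ± 0.044 and -0.10 ± 0.08, and *Jdp2*, a repressor that pairs with JUN, at -0.060 ± 0.055. Limma adjusted p values of these 8 were 0.71 to 0.751.
Of 13 EGR, NR4A and KLF relatives, 9 were tested, with 7 above 0, 2 below 0 and 0 past the threshold (0 unadjusted), and a median of 0.0365. *Egr3*, *Egr4*, *Nab2* and *Nr4a3* were not well above background on any array. *Klf6* stood at 0.105 ± 0.053 and *Klf2*, a factor that flow induces in endothelium, at 0.11 ± 0.10, with 0.26 and 0.49 on slide 3. *Egr2*, known for its part in myelination, stood at 0.055 ± 0.059, *Nr4a2* at -0.045 ± 0.043 and *Nab1*, a corepressor of EGR proteins, at 0.069 ± 0.075. *Klf5* and *Klf10* stood at 0.0365 ± 0.044 and 0.021 ± 0.040, and *Klf9* at -0.020 ± 0.051, with the opposite sign by its other probe (0.016). Limma adjusted p values of the 8 were 0.71 to 0.9.

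Of 49 other early response genes, 42 were tested, with 24 above 0, 18 below 0 and 0 past the threshold, and 4 of the 42 had an unadjusted limma p under 0.05, a share near the 7.78% of all genes. Those 4 stood above 0. *Thbs1*, which encodes the matrix protein thrombospondin, stood at 0.205 ± 0.047 (limma adjusted p = 0.414) and was higher in null in 6 of 6 replicates. That was by its brightest probe, and its other probes stood lower, at 0.066 ± 0.049 and 0.089 ± 0.047. *Plk2*, a Polo-like kinase gene, stood at 0.165 ± 0.0545, *Zfp36l1*, which encodes an mRNA decay factor, at 0.13 ± 0.05 and *Nfkbia*, the NF-kB inhibitor gene, at 0.097 ± 0.040, each higher in 5 of 6 replicates (limma adjusted p = 0.64 to 0.7). *Ccn2*, the connective tissue growth factor gene, stood at 0.226 ± 0.105 (limma adjusted p = 0.71), with 0.10, -0.039 and 0.61 on slides 1, 2 and 3. *Hes1*, a Notch target, stood at -0.10 ± 0.05 (limma adjusted p = 0.71). The median of the list was 0.015, and *Npas4* and *Ptgs2* were not well above background on any array.
Of 26 genes upstream of the response, 24 were tested, with 14 above 0, 10 below 0, 0 past the threshold, and a median of 0.0195. An unadjusted limma p under 0.05 was found for 2 of the 24, a share near the 7.78% of all genes. *Egfr*, the EGF receptor gene, stood at 0.27 ± 0.06 (limma adjusted p = 0.38) by its brightest probe, while its other probes stood at 0.052 and -0.025, so it has no settled direction. *Atf1*, a CREB relative, stood at 0.14 ± 0.04 (limma adjusted p = 0.564) by its brightest probe and was higher in 6 of 6 replicates. Its other probe stood at 0.056 ± 0.044. With the replicate as a random block over 12 arrays, *Egfr* and *Atf1* passed by their brightest probes (limma adjusted p = 0.0156 and 0.0498). *Mrtfa*, an SRF coactivator gene, stood at 0.075 ± 0.039, *Elk3*, an SRF partner gene, at 0.0745 ± 0.047, *Crem*, a CREB relative, at 0.088 ± 0.052 and *Map2k2*, which encodes MEK2, at -0.12 ± 0.07. The other probe of *Mrtfa* had the opposite sign (-0.073), as did 3 of the 5 other probes of *Crem* (-0.074 to -0.0032).
Heat shock genes, which rise on protein damage, had 13 of 13 tested, 6 above 0, 7 below 0 and 0 past the threshold, and their median was -0.0205. *Hspa8*, the constitutive HSP70 chaperone gene, stood at -0.21 ± 0.06 (limma adjusted p = 0.559) and was lower in null in 5 of 6 replicates. Its other probe stood at -0.13 ± 0.04. *Dnajb1*, an HSP70 cochaperone gene, stood at -0.085 ± 0.043 by its brightest probe and at -0.18 ± 0.06 by its other one (limma adjusted p = 0.71 and 0.668), *Hsp90ab1* at -0.076 ± 0.067 and *Hspd1*, the mitochondrial chaperonin gene, at -0.050 ± 0.046. *Hspb1*, a small heat shock protein gene, stood at 0.14 ± 0.08 and *Hmox1*, the heme oxygenase gene that oxidative stress induces, at 0.070 ± 0.041.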

How the data were processed

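Each array was a two-colour Agilent array. Per the file headers, the deposited spot and background columns are median pixel intensity for each dye, with no further normalization. The same files hold processed intensity and a log10 ratio that, per the file headers, Agilent Feature Extraction 10.5.1.1 produced, while the submitters' processing notes name version 6.1. The series value table holds log10 ratios the authors turned to null over WT, which followed the scanner's ratios (r of 0.998 or 0.999 on each array, slope 1, column medians of -0.0218 to 0.00645); it has 25501 to 32441 filled rows per array. It served as an alternative.

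Background was corrected by normexp (offset 50), and ratios were normalized by loess, in limma 3.58.1 (R 4.3.3), with control and outlier spots at weight 0. Spots of a probe and then the 2 arrays of a replicate were averaged, on the log2 scale, from the deposited intensity values. A probe was tested where it was well above background in null or WT on at least 6 of 12 arrays; where a probe had several spots, 50% of them had to be. Null over WT was fitted with a dye term (lmFit, eBayes), with Benjamini-Hochberg adjustment over all 22979 probes and a threshold of 0.05. The brightest tested probe stands for a gene. Other tested probes of *Maf*, *Klf2*, *Klf6*, *Elk3*, *Hsp90ab1* and *Hspd1* had the same sign and are not given. Symbols came from RefSeq accessions (25097 of 41174 probes matched). Levels are channel brightness after loess and Aquantile scaling. No member probe was saturated. Precision is limited by how few arrays there are, with a median SE of 0.051 for the members and 0.049 for all genes.

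Each of the 3 slides held 4 arrays, both orientations of 1 replicate number. Same-numbered samples deviated together (correlations of 0.587, 0.517 and 0.413), so a fit blocked by number (3 pairs) was also run. Slide and replicate number coincide, so a shared slide and shared RNA cannot be told apart. Whether both orientations of a number hold the same RNA is not stated; if so, unpaired p-values come out too small.

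The members, gene lists and marker lists were chosen with earlier results of these data known. Named are all members and their probes, the 8 or 6 genes of smallest p in each related list, and the 8 genes most like the members' mean. The fit was also run on simulated data whose replicates were drawn independently. Such data cannot show how a shared slide affects the unpaired p-values. Alternatives were median centring, no background correction, scanner signals, the deposited value table, other filters, each replicate, slide or duplicate left out, and a random block. Member gene coordinates are not given, since the file headers name another build (mm9) than the gene table. The promoters of *Egr1* and *Ier2* are not shown.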

Additional observations from a re-analysis of the deposited data

Results flagged for a closer look

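The *Klf4* level in the null channel of WT/null replicate 3 was 12.61 on the log2 scale, against 12.35 to 12.44 in the other null replicates, which set it far from them for a group of 6. This was 1 of 22 groups of levels looked at, and chance flags about 1 in 20 groups. The WT channel of the same replicate was also the highest of its group, at 12.35, and null over WT there was 0.26, between the 0.28 and 0.23 of WT/null replicates 1 and 2.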

How the results depend on the processing

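No alternative gave a different count of called members (0 of 9) except the random block over 12 arrays, with 1 (*Klf4*). With the replicate block, 4 probes passed in place of 9, none of them of a member, and it changed no call of a member or of a related list. The random block called 148 probes (112 higher in null), among them 2 of the upstream genes, and leaving out the first array of WT/null replicate 3, an alternative chosen after seeing the data, called 15. Leaving out 1 replicate or slide gave 3 (slide 2) to 62 (slide 3) probes, with 5 without null/WT replicate 2, and 0 members each time. The members' median moved to 0.22 with median centring, which moved the median of all tested probes to 0.14, and lay between 0.017 and 0.12 with a replicate or slide left out. *Ier2* and *Atf3* changed sign under median centring (0.18 and 0.12), a scaling under which *Atf3* still lay below the median of all tested probes. With a replicate or slide left out, *Ier2* ranged from -0.0705 to 0.036, *Atf3* from -0.067 to 0.022 and *Junb* from -0.0012 to 0.19. Signs changed for *Ier2* without slide 3 (0.036), WT/null replicate 3 (0.010) or null/WT replicate 3 (0.00043), for *Atf3* without slide 3 (0.022) or WT/null replicate 3 (0.0024), and for *Junb* without slide 3 (-0.0012). Of 188 member values under alternatives, 8 changed sign, 2 of them under median centring, and 1 passed the threshold that the main value had not. The cause was not tested, beyond the fewer samples of the settings that leave some out. *Fosb* gave no value where a probe had to be well above background in both channels on all arrays. Signal over background leaves *Fos* without a measurement and *Fosb* with one on about as many arrays as not, and *Bdkrb2* could not check the labels.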
